A study of Caenorhabditis elegans with 24 samples.

Results

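mir-228 is a miRNA hairpin of Caenorhabditis elegans, and both of its mature arms, cel-miR-228-5p and cel-miR-228-3p, were followed through embryogenesis. They are 2 of the 434 arms in the count table. The hairpin was chosen from the values of these data, though which values were used is not recorded. Its level is high and changes over the timecourse, so its levels were treated as used in the choice and are described without a test. The ratio of its arms was named beside its level when it was chosen, and whether that ratio played a part in the choice is not recorded. The tests of the arm division given here are therefore not independent evidence. All embryos were wild-type strain N2, cut out of adult worms and picked by mouth pipette, with 50 embryos in each sample and no treatment. Time was counted from the 4-cell stage. The early stages were 60, 120 and 180 min, the middle ones 225, 270 and 330 min, and the late ones 410 and 500 min. Each of the 8 stages had 3 small RNA libraries, 24 in all, made from whole embryos. The labels do not tie the samples of a stage to separate cultures, so the spread between them may be partly technical.

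A miRNA hairpin is cut into a duplex of 2 short strands. One strand is usually loaded into an Argonaute protein and guides it to messenger RNAs through its seed near the 5′ end, while the partner strand is usually degraded, so that the 2 arms of a hairpin differ in abundance. miR-228-5p shares its seed with the miR-183 family of vertebrates. In C. elegans a reporter driven by the mir-228 promoter is active in glia, the support cells of the sense organs and the nerve ring, and that promoter is widely used to mark or drive genes in these cells. Most glia of the worm are born in the embryo. The table holds miRNAs and no messenger RNAs, so the glial origin of these reads could not be checked here. In whole embryos, a change in the number of cells that make a miRNA and a change in the amount per cell cannot be told apart.

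In the WBcel235 annotation the hairpin lies on the plus strand of chromosome IV from 5562025 to 5562122, a span of 98 bases. The 5p arm is annotated at 5562040 to 5562062 (23 bases) and the 3p arm at 5562082 to 5562103 (22 bases). No other annotated gene overlaps the hairpin. The nearest protein-coding genes are ari-2, 3204 bases upstream, and T12E12.6 on the minus strand, 4897 bases downstream, so mir-228 is intergenic. It sits among piRNA genes, 23 of which lie within 5 kb on either strand. The next miRNA gene downstream, mir-790, is on the same strand at a distance of 4299 bases. No sequence of the arms was used here.

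Library totals ran from 88482 to 1594151 counts, and those of the 60 min libraries were 128667, 99167 and 369500. The mir-35 family, a marker of early embryos, made up 0.0346% to 0.0698% of counts in the 500 min libraries and 4.68% to 5.29% in the 60 min libraries, and 15 of its 16 listed arms had reads. Heterochronic miRNAs of larval and adult tissue (let-7, lin-4, mir-48, mir-84 and mir-241) made up at most 0.0666% of any library, and 8 of their 10 listed arms had a read. That maximum was in 60 min replicate 3, which also had the highest miR-228-5p share of its stage. No library of a later stage passed 0.0339%. Neither arm of mir-84 had a read, and the arms of let-7 and lin-4 had 1 to 3 reads each over the whole series. Their part in the values below was not tested.

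miR-228-5p was a minor miRNA in the youngest embryos and the second most abundant in the oldest. Over all libraries it had 653591 reads and ranked 6th of the 434 arms, and miR-228-3p had 17254 reads and ranked 29th. A share below is the percentage of the counts of a library that an arm took. It needs no scaling factor but also moves when other miRNAs take more or fewer of the counts. Levels are CPM, read counts scaled to a common library size after adjustment by TMM, a method that sets the bulk of the miRNAs level between libraries.

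At 60 min, miR-228-5p took 0.221%, 0.101% and 0.505% of the counts, from 284, 100 and 1867 reads. The 3 libraries differed 5.01-fold, the widest spread of any stage, with replicate 3 the highest. At 120 min the shares were 0.322%, 0.348% and 0.350%, all inside the range of the 60 min libraries. At both stages the arm ranked between 17th and 25th in its libraries.

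At 180 min the shares of miR-228-5p were 2.20%, 1.56% and 2.08%, above every earlier library. At 225 min they were 2.69%, 1.56% and 2.83%, and at 270 min 3.59%, 2.33% and 3.20%. Each of these stages overlapped the next, although the 270 min shares all lay above those of 180 min. The arm ranked from 9th to 14th through them.

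At 330 min miR-228-5p took 3.98%, 6.01% and 6.33% of counts. At 410 min the shares were 9.21%, 11.1% and 13.7%, and at 500 min 13.3%, 16.5% and 18.8%. Every 330 min library lay above those of 270 min and every 410 min library above those of 330 min, while the 410 and 500 min libraries overlapped. By mean share miR-228-5p ranked 20th at 60 min, 12th at 180 min and 6th at 330 min. It ranked 4th at 410 min and 2nd at 500 min, where miR-57-3p led with 25.4% ± 4.50 (SD, n = 3). The mean share was 16.2% ± 2.73 at 500 min and 0.276% ± 0.208 at 60 min (n = 3 each, SD).

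**Figure D1:**
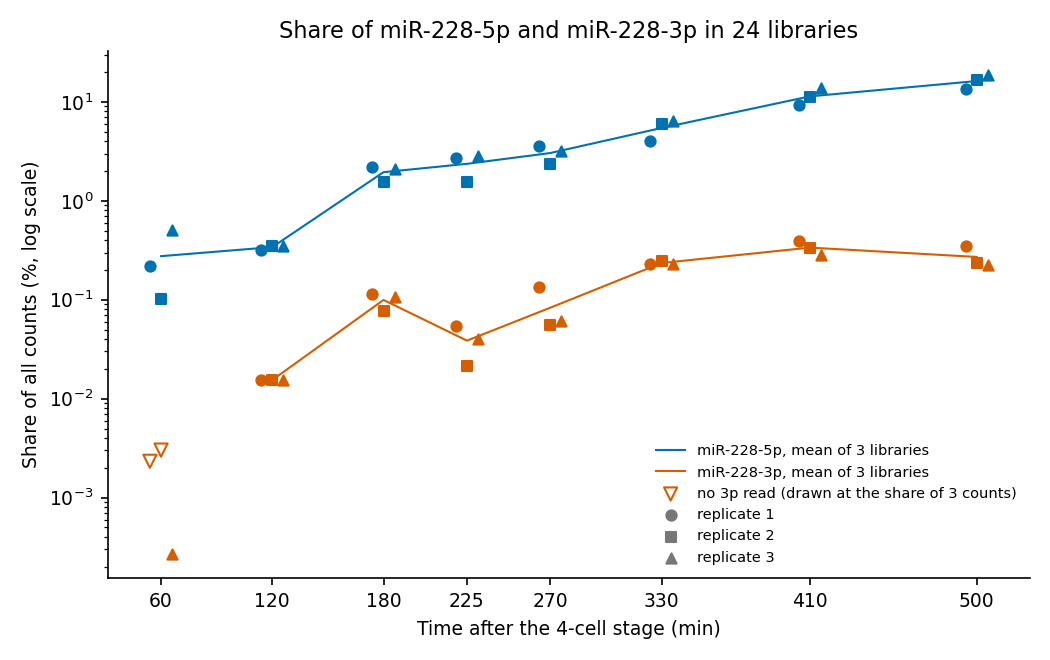
Share of all counts taken by miR-228-5p and miR-228-3p (log axis, %) against time after the 4-cell stage (min); each filled point is 1 library, lines join the means of 3 libraries, and open triangles mark the 60 min libraries with no 3p read at the share that 3 counts would give. The highest 5p share is 18.8%, in a 500 min library, and the lowest 0.101%, in a 60 min library; the 3p arm is lower at 225 min than at 180 min in all libraries, which the 5p arm is not.

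On the scaled level, miR-228-5p stood at 241538 ± 47471 CPM at 500 min and 4378 ± 4080 CPM at 60 min (n = 3 each, SD). The log2 fold change from the edgeR fit was 5.78 ± 0.60 (SE), or 5.48 above the median of the 128 arms kept by the low-count filter, which was 0.30. Scaling by DESeq2 size factors gave 6.50 (median of all arms 0.59), and total counts gave 5.87 (median 0.08). Without 60 min replicate 3 it was 6.84. All 3 libraries of 500 min lay above those of 60 min for both arms, as in 41 of the 128 arms, which is 32%. Since the levels were treated as used in the choice of the hairpin, nothing is read from the comparison.

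The order of the stages by mean level of miR-228-5p was 120, 60, 225, 180, 270, 330, 410 and 500 min. In that order 225 min did not overlap 60 min, 330 min did not overlap 270 min and 410 min did not overlap 330 min. The other neighbours (60 and 120, 180 and 225, 270 and 180, 500 and 410 min) overlapped. Scaled by DESeq2 size factors, every 500 min library lay above those of 410 min.

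The level of miR-228-5p differed most in a few of the steps between neighbouring stages. The largest was at 180 min against 120 min, with a log2 fold change of 2.80 ± 0.52 (SE). In it the 3 libraries did not overlap, as in 10.2% of the 128 arms, and without the low-count filter the log2 fold change was 2.13. The second was at 410 min against 330 min, at 1.57 ± 0.50, where 21.1% of arms were higher without overlap and where total counts gave 1.06. At 330 min against 270 min it was 0.88 ± 0.49, again without overlap, as in 7.81% of arms.

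Between 180 and 225 min the 5p level had no clear direction. The log2 fold change of 225 min against 180 min was -0.01 ± 0.49, but 0.23 when scaled by DESeq2 size factors and 0.28 by total counts. At 270 min against 225 min it was 0.56 ± 0.49, and at 500 min against 410 min 0.72 ± 0.49, both with overlapping libraries. DESeq2 size factors gave 0.94 for the step to 500 min, without overlap. The first step cannot be given a direction. At 120 min against 60 min the log2 fold change was -0.74 ± 0.49 with TMM, but 0.20 when scaled by DESeq2 size factors and 0.30 by total counts. Leaving out 60 min replicate 3 gave 0.32.

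**Figure D2:**
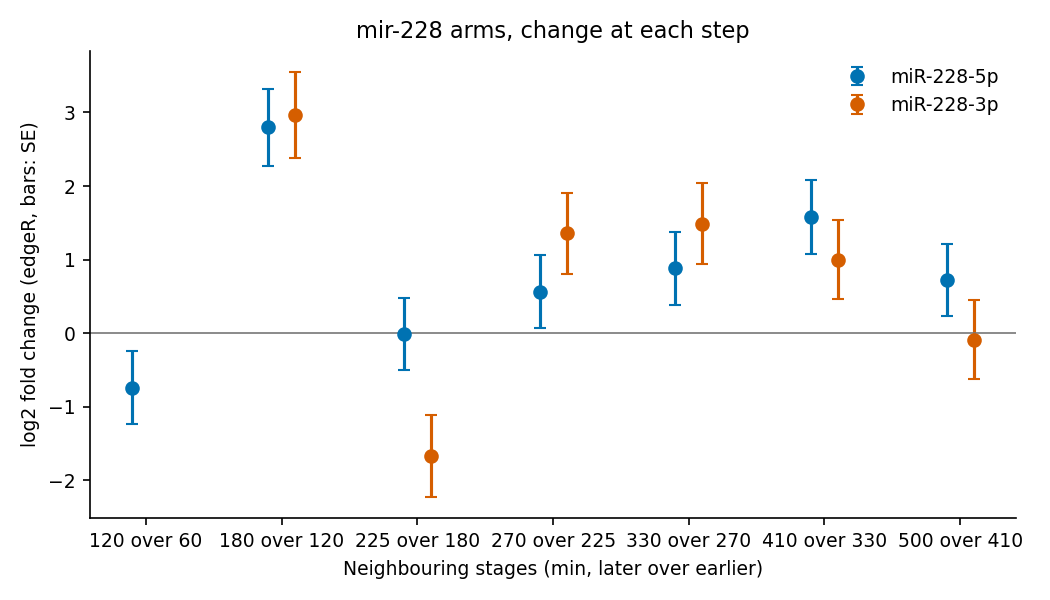
log2 fold change of miR-228-5p and miR-228-3p at each of the 7 steps between neighbouring stages (later over earlier, min), from the edgeR fit over 24 libraries; bars are 1 SE, and the 3p arm has no point at 120 over 60 min because it had 1 read at 60 min. Both arms are near 3 at 180 over 120 min, and they part at 225 over 180 min, with -0.01 for the 5p arm and -1.67 for the 3p arm.

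miR-228-3p, the arm with fewer reads, was almost unread at 60 min. It had 0, 0 and 1 read in the 3 libraries, where the limits that a count of 0 allows, taken as 3 counts, were 0.00233% of the counts in replicate 1 and 0.00303% in replicate 2. At 120 min it had 45, 20 and 56 reads, or 0.0155%, 0.0153% and 0.0155% of counts. All 3 libraries of 120 min lay above those of 60 min, as in 7.81% of the 128 arms. The ratio of 120 min to 60 min was 45.1 in TMM-scaled reads, with an exact 95% Poisson interval of 7.94 to 1794 that covers counting error only. It was 85.2 when scaled by DESeq2 size factors and 92.4 by total counts. Without 60 min replicate 3, which held the 1 read, the 3p arm was at least 7.08-fold higher at 120 min, against a floor of 3 counts over the stage.

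The shares of miR-228-3p were 0.114%, 0.0766% and 0.108% at 180 min. They were 0.0547%, 0.0215% and 0.0397% at 225 min. All 3 libraries of 225 min lay below those of 180 min, as in 10.9% of the 128 arms, and the log2 fold change was -1.67 ± 0.56 (SE). At 270 min the shares were 0.133%, 0.0550% and 0.0614%, with replicate 1 the highest. They lay above those of 225 min, as in 13.3% of arms on the scaled level, although the 3 libraries overlapped when scaled by DESeq2 size factors.

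At 330 min miR-228-3p had shares of 0.227%, 0.248% and 0.230%, a log2 fold change of 1.49 ± 0.55 against 270 min. Without 270 min replicate 1 that fold change was 2.20, and the one for 270 min against 225 min was 0.64 in place of 1.36 ± 0.55. At 410 min the shares were 0.388%, 0.336% and 0.285%. At 500 min they were 0.350%, 0.238% and 0.225%, overlapping those of 410 min, and the log2 fold change of 500 min against 410 min was -0.09 ± 0.54, but 0.04 when scaled by DESeq2 size factors. The mean share of the 3p arm was 0.271% ± 0.0686 at 500 min and 0.336% ± 0.0516 at 410 min (n = 3 each, SD), its highest stage, while that of the 5p arm was highest at 500 min.

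The division of reads between the arms changed with stage. As a percentage of mir-228 reads, the 3p arm took 0%, 0% and 0.0535% at 60 min. It took 4.59%, 4.22% and 4.25% at 120 min and 4.93%, 4.69% and 4.94% at 180 min. The 3 libraries of each of these stages lay close together, and the 180 min libraries were all above those of 120 min.

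At 225 min the 3p percentage was 1.99%, 1.35% and 1.38%, below every library of 120 and 180 min. It was 3.58%, 2.30% and 1.89% at 270 min and 5.40%, 3.96% and 3.50% at 330 min. At 410 min it was 4.04%, 2.93% and 2.04%, and at 500 min 2.55%, 1.42% and 1.18%. Neighbouring stages from 225 min on overlapped. Within each of the 3 replicate numbers the percentage was higher at 270 than at 225 min and at 330 than at 270 min. Within each number it was also lower at 410 than at 330 min and at 500 than at 410 min. Replicate 1 had the highest percentage of its stage at 6 of the 7 stages from 120 min. Whether replicate numbers mark a shared preparation is not given in the labels. In deviations from the stage means, 21 of 24 libraries correlated best with libraries of their own number. The part of this in the spread of the 3p percentage was not tested.

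Expressed as a ratio, there were 19.3, 20.3 and 19.3 5p reads for each 3p read at 180 min. At 225 min there were 49.1, 72.8 and 71.3. At 330 min there were 17.5, 24.2 and 27.6, and at 500 min 38.2, 69.4 and 83.5. The ratios were 20.8, 22.7 and 22.6 at 120 min, 27.0, 42.4 and 52.0 at 270 min, and 23.7, 33.1 and 48.1 at 410 min. At 60 min the ratio was 1867 in replicate 3, where it rests on 1 3p read. Replicates 1 and 2 had no 3p read, and against a floor of 3 counts their ratios were at least 94.7 and 33.3.

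Depth limits the 60 min values. The exact 95% binomial intervals of the 3p percentage reached 1.29% in 60 min replicate 1, 3.62% in replicate 2 and 0.298% in replicate 3. Of 2252 mir-228 reads at 60 min, 1 was on the 3p arm; at the percentage of 225 min, the lowest of the later stages over pooled reads, 35.1 would have been, and at that of 120 min 98.2. Replicate 3 supplies most of these reads. In replicate 2, which had 100 mir-228 reads, the percentage of 225 min would give 1.56 3p reads. Its lack of 3p reads therefore does not exclude that percentage.

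Stages accounted for 89.2% of the variance of the 3p percentage over the 24 libraries. A permutation test of that share over libraries gave p = 1e-05, the smallest that 100000 resamples can give, and Benjamini-Hochberg adjusted p = 0.00011 over the 22 hairpins tested the same way. The test is one-sided by construction. Since the part of the arm ratio in the choice of the hairpin is not recorded, it is not independent evidence. Without the 60 min stage the stages accounted for 81.8% of the variance (permutation p = 0.0005, 21 libraries), and from 180 min on for 79.5% (permutation p = 0.00175, 18 libraries).

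**Figure D3:**
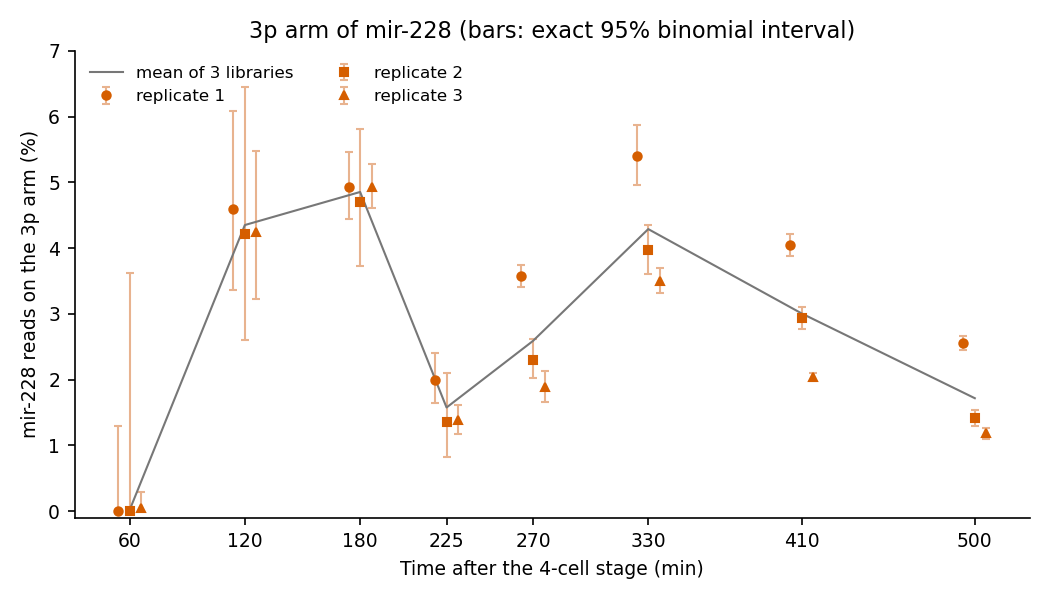
Percentage of mir-228 reads on the 3p arm against time after the 4-cell stage (min); each point is 1 library with its exact 95% binomial interval, which covers counting error only, and the line joins the means of 3 libraries. The percentage is near 0 at 60 min, 4.22% to 4.94% at 120 and 180 min, 1.35% to 1.99% at 225 min, and spreads more between replicates from 270 min on.

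Changes in the arm division were common among hairpins, and mir-228 was at the upper end by the share of variance between stages. For each hairpin the arm with fewer reads over the series was called the minor arm. Among the 22 hairpins with at least 20 reads in every library, 12, mir-228 included, differed among the stages in minor-arm percentage (54.5%, permutation tests, adjusted p under 0.05). mir-228 had the largest share of variance between stages, followed by mir-74 with 85.7% and mir-87 with 85.3%. Some others had few minor-arm reads, such as mir-65, whose minor arm held 0.00825% of its reads. Counting error lowers the share in such hairpins, so the order does not rank the size of the change. Over all libraries the minor arm held 2.57% of the mir-228 reads, and 28 of the 46 hairpins with both arms read and at least 1000 reads had a smaller percentage.

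Each difference of the arm division between neighbouring stages at which mir-228 did not overlap was found in a minority of the other hairpins. Hairpins with few minor-arm reads were kept in these counts, which lowers the percentages. For example, mir-253 had 0% on its minor arm at 120, 180 and 225 min and could not separate between them. At 120 min against 60 min, 5 of the other 26 hairpins with enough reads also had 3 libraries with a higher minor-arm percentage, which is 19.2%, and none of the 26 had 3 lower ones. They were mir-38, mir-71, mir-72, mir-74 and mir-4816. For example, the 3p arm of mir-74 held 0.463% ± 0.259 of reads at 120 min and 0.0201% ± 0.0348 at 60 min (n = 3 each, SD). At 225 min against 180 min, 5 of 31 other hairpins had lower minor-arm percentages without overlap (16.1%). These were mir-42, mir-64, mir-73, mir-81 and mir-5546, while in mir-72 the minor arm was higher, with 1.44% ± 0.238 at 225 min and 0.495% ± 0.190 at 180 min. At 180 min against 120 min, where the mir-228 percentage was slightly higher without overlap, 6.67% of 30 other hairpins showed the same, and at 500 min against 60 min 42.9% of 21. The hairpins in these counts were named after their values were seen.

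**Figure D4:**
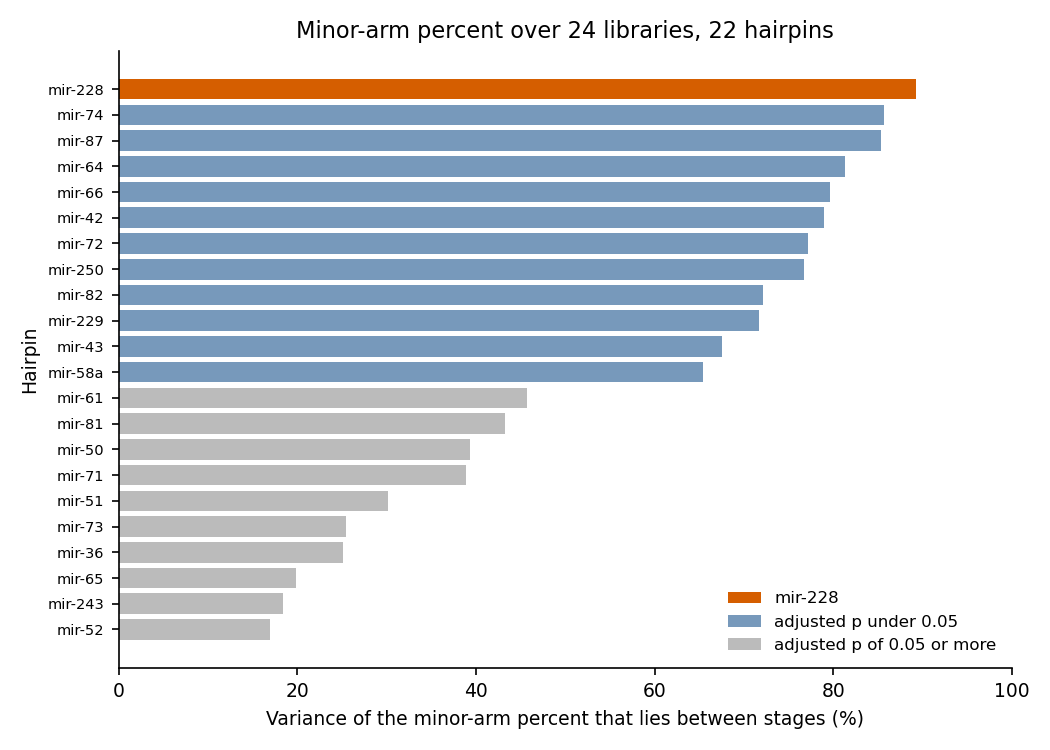
Share of the variance of the minor-arm percentage that lies between the 8 stages (%), for the 22 hairpins with at least 20 reads in each of the 24 libraries; colours give the permutation test with Benjamini-Hochberg adjustment. mir-228, at 89.2%, is the highest of the 22, of which 12 have an adjusted p under 0.05.

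The 5 arms whose profiles were most like that of miR-228-5p all had higher mean shares from 180 min on than at 60 or 120 min. Likeness was measured by Pearson's r of log2 TMM-scaled CPM over the 24 libraries, across 126 arms of other hairpins, as a description. These libraries share the normalization and the stage order, and r carries no test. The highest was miR-58a-3p at 0.94, of the worm's bantam-related family, followed by miR-81-3p at 0.90, miR-57-3p and miR-82-3p at 0.89 each, and miR-49-5p at 0.88. miR-81 and miR-82 belong to the same family as miR-58a, so 3 of the 5 are relatives. Over the 8 stage means, 3 of these 5 were still among the first 5. The r between miR-228-5p and miR-228-3p was 0.87.

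The stages of the highest mean share differed. miR-82-3p took 12.2% ± 3.23 of counts at 500 min, 13.7% ± 3.79 at 270 min, its highest stage, and 8.27% ± 2.42 at 180 min (n = 3 each, SD), and miR-81-3p took 5.72% ± 1.36 at 500 min and 5.03% ± 1.58 at 225 min. miR-57-3p, expressed in posterior cells of the worm, had 1.36% ± 0.541 at 180 min, 20.3% ± 2.64 at 270 min and 31.6% ± 3.48 at 410 min. miR-228-5p was at 3.04% ± 0.643 at 270 min and had a lower mean share than miR-82-3p up to 410 min and a higher one at 500 min. miR-58a-3p had 2.38% ± 0.687 at 500 min and 0.898% ± 0.408 at 180 min.

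Set within each library against miR-57-3p, which needs no scaling, miR-228-5p had 1.56 ± 0.611 reads per miR-57-3p read at 180 min (SD, n = 3), above 1 in all 3 libraries. The ratio was 0.149 ± 0.0205 at 270 min and 0.642 ± 0.0845 at 500 min. In single libraries it ran from 0.556 to 0.725 at 500 min and from 0.127 to 0.167 at 270 min, without overlap. Both miRNAs had their highest mean share in a late stage and were named with earlier results known, so the ratio is given as a description.

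**Figure D5:**
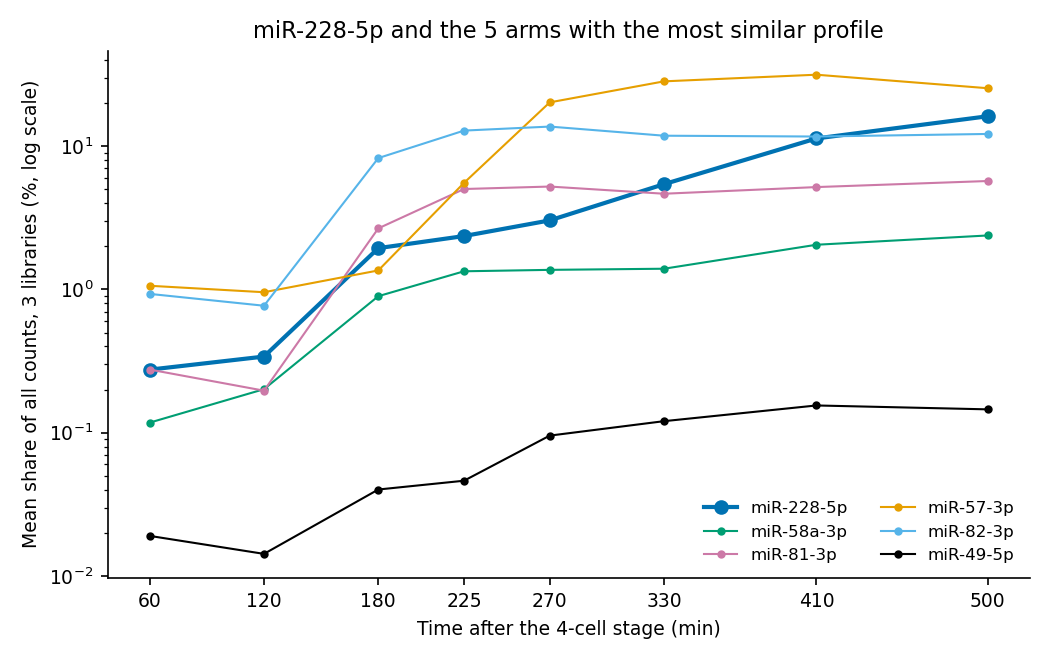
Mean share of all counts (log axis, %) over 3 libraries per stage for miR-228-5p and the 5 arms with the highest Pearson r to it over 24 libraries, against time after the 4-cell stage (min). From 225 min on, miR-81-3p stays between 4.66% and 5.72%, while miR-228-5p has its highest mean, 16.2%, at 500 min.

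For miR-228-3p the 5 arms with the highest r were miR-58a-3p at 0.87, miR-79-3p at 0.85, miR-54-3p and miR-52-5p at 0.84 each and miR-79-5p at 0.82. Without 60 min replicate 3 only 1 of the 5, miR-58a-3p, was still among the first 5, while 4 or 5 were kept without any other single library. The same single arm was kept with Spearman's rho, and 3 were kept with total counts. miR-79-3p and miR-54-3p had no read at 60 min.

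Apart from miR-57-3p, the tissue-restricted miRNAs looked at had lower mean shares than miR-228-5p at every stage. Some were above miR-228-3p early: intestinal miR-60-3p had 265 reads at 60 min, where miR-228-3p had 1. Muscle miR-1-5p had 0.0400% ± 0.0133 of counts at 500 min and 0.139% ± 0.0296 at 225 min, its highest stage (n = 3 each, SD). Its r with miR-228-5p was 0.59 and with miR-228-3p 0.80. miR-1-3p had 308 reads in all and miR-1-5p 6073. Arm names are those of the deposited counts and were not checked against sequences.

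In neurons, lsy-6-3p, whose hairpin controls which of a pair of taste neurons adopts the left fate, had 0.0161% ± 0.00663 of counts at 500 min and 4 reads in all from 60 to 225 min together. Its r with miR-228-5p was 0.82. Neuronal miR-124-5p had 62 reads at 500 min and none up to 180 min, with an r of 0.77, and miR-124-3p had 17 reads in all. miR-60-3p was highest at 270 min, at 0.0709% ± 0.0224, and had an r of -0.22; miR-60-5p had 70 reads in all. miR-57-5p and lsy-6-5p had no reads.

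The downstream neighbour mir-790, looked at for its position, had few reads up to 330 min. miR-790-5p had 4 reads at 120 min and 113 in all. miR-790-3p had 0 reads at 60, 120 and 225 min and 2 reads at 180 min. There were 11 reads at 270 min and 54 at 330 min. Its share was 0.0751% ± 0.0168 in the 410 min libraries and 0.0656% ± 0.0155 in the 500 min libraries (n = 3 each, SD). At 180 min, when miR-228-5p had 23897 reads over its 3 libraries, miR-790-3p thus had 2. Its r with miR-228-5p over the 24 libraries was 0.83.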

How the data were processed

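Small RNA was extracted with TRIzol from 50 embryos per sample and made into libraries with an Illumina TruSeq small RNA kit and 15 PCR cycles, per the labels' protocols, which describe no molecular identifiers; intervals and floors therefore cover counting error only. The table that the authors deposited holds read counts, whole and not normalized, of 434 mature arms in 24 libraries. Bowtie and HTSeq were used, per the submitters' processing notes; the sources used here give no versions, genome build, miRNA annotation, strand use or handling of multi-mapping reads. WBcel235 coordinates come from the Ensembl annotation.

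Counts were fitted in R 4.3.3 with edgeR 4.0.16: filterByExpr with a minimum count of 10 (128 arms kept), TMM factors, robust dispersions over all 24 libraries with stage as a factor, and quasi-likelihood fits. The SE of a log2 fold change was derived from it and the quasi-likelihood F. Correlations used log2 CPM with a prior count of 2. The 3p percentage was tested with 100000 resamples in Python 3.11.15, with exact binomial intervals from scipy 1.17.1. Alternatives included DESeq2 1.42.0, other scalings, no filter and leaving out each library. The edgeR and permutation procedures were tested on simulated data.

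Named arms were those of mir-228, the 5 most like each by r, the most abundant arm of a stage, and a list of tissue-restricted hairpins; others are said to be chosen afterwards. The members, lists and tests were chosen with earlier results of these data known.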

Additional observations from a re-analysis of the deposited data

How the results depend on the processing

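Each step of mir-228 at which the libraries did not overlap kept its direction under every alternative run. Among the overlapping steps, leaving out 1 library gave -0.34 to 0.39 for miR-228-5p at 225 min against 180 min and -0.28 to 0.02 for miR-228-3p at 500 min against 410 min. The fold changes at 410 min against 330 min moved by more than the spread between replicates with total counts, to 1.06 for miR-228-5p and 0.52 for miR-228-3p, and without the low-count filter to 0.62 for miR-228-3p. Leaving out that filter also moved miR-228-5p at 180 min against 120 min to 2.13. The cause was not tested. Without each library in turn, miR-228-3p at 330 min against 270 min ran from 1.20 to 2.20, and miR-228-5p at 500 min against 60 min from 5.32 to 6.84. With the replicate number as a block, that fold change was 6.03 and that of miR-228-3p at 225 min against 180 min was -1.63. A permutation test of the 3p percentage within replicate number, also a block, gave p = 1e-05, again the smallest possible. The block moved no fold change beyond the spread. Of 84 pairs of libraries with the same number at other stages, 40 had deviations from the stage means correlated above 0.1, against 16 of 168 pairs with different numbers. The labels give no pairing and not all pairs passed 0.1, so the main fits did not pair libraries by number. As a hint from the data, 21 of 24 libraries correlated best with libraries of their own number. Within each of the 3 numbers the 3p percentage was higher at 270 than at 225 min and at 330 than at 270 min, and lower at 410 than at 330 min and at 500 than at 410 min. Without each library in turn, stages accounted for 87.7% to 91.5% of the variance of the 3p percentage (permutation p from 1e-05 to 3e-05, at or near the smallest that the resamples can give). Of the 5 arms most like miR-228-5p, 3 were kept over stage means and 4 or 5 without any 1 library. Of the 5 most like miR-228-3p, 3 were kept over stage means, 3 with total counts, 1 with Spearman's rho, and from 1 to 5 without 1 library. The 500 min to 60 min ratio of miR-228-3p reads was 1701 (exact 95% Poisson interval 305 to 67187). Without 60 min replicate 3, which held the only read, it was at least 267-fold. The count of arms without overlap between 500 and 60 min was 70 of 128, 73 under either other scaling and 76 of 297 without the filter. Depth limits the 60 min values most, where mir-228 had 100 to 1868 reads per library.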
